A study of Rattus norvegicus with 9 samples.

Results

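10 genes of the amino acid and endoplasmic reticulum stress response were followed in the rat gastrocnemius, a muscle of the calf, under glucocorticoid with and without androgen. They are Chac1, the transcription factors Atf4, Atf5, Atf3 and Ddit3, the pseudokinase Trib3, the amino acid enzymes Asns, Psat1 and Phgdh, and Sesn2. The 10 genes, of 14217 with a probe set of a single symbol, were chosen by the measured difference between dexamethasone and vehicle on these same arrays, in which Chac1 was 11.3-fold higher with dexamethasone, so that comparison is described here for the members and not tested. They are measured by 13 probe sets, of which 9, for 9 genes, were bright enough to be tested. The only probe set of Psat1, 2 of the 3 of Trib3 and 1 of the 2 of Sesn2 fell below the filter on dim signals.

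Male Wistar rats of 250 g were infused from implanted Alzet pumps for 7 days, and each group held 3 animals with 1 array per animal. The combination group received the synthetic glucocorticoid dexamethasone at 0.7 mg/kg/day together with testosterone, whose dose is given as 28 mg/kg/day in the sample labels and 20 mg/kg/day in the series design. The dexamethasone group received the same dose of dexamethasone without testosterone, and the vehicle group received propylene glycol alone. No group analysed here received testosterone without dexamethasone, and the delivery was systemic, so muscle was not the only tissue exposed.

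ATF4 is a transcription factor whose translation increases when kinases that sense amino acid shortage, unfolded protein, haem deficiency or viral RNA phosphorylate the initiation factor eIF2α. It then raises transcription of genes for amino acid synthesis and uptake, tRNA charging and redox balance, and prolonged activity brings in DDIT3 (CHOP), ATF3 and TRIB3. CHAC1 degrades glutathione in the cytosol and is a widely used readout of this response. Because ATF4 is controlled mainly at translation, its mRNA level on an array does not report the amount or activity of the protein.

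The DNA upstream of Chac1 and Trib3 is shown because these were the members whose promoters held the binding element of ATF4 with C/EBP partners. In the RefSeq promoter table of build GRCr8, 9 of the 10 members had an entry (all but Atf3), each running from 250 bases before to 50 bases after the start that the table gives. In 6 of the 9, Chac1 and Trib3 included, that start was the outer 5′ end of the gene in RefSeq, and in 3 (Atf5, Asns and Psat1) it lay inside the gene. Capitals mark matches to TGATGNAA, the core of the C/EBP-ATF response element, or to TGACGCAA, a related ATF element, searched on both strands. The 250 bases before the start are printed for Chac1 at chr3:126795881-126796130 on the plus strand and for Trib3 at chr3:161275534-161275783 on the minus strand, each 5′ to 3′ along its gene.
Chac1: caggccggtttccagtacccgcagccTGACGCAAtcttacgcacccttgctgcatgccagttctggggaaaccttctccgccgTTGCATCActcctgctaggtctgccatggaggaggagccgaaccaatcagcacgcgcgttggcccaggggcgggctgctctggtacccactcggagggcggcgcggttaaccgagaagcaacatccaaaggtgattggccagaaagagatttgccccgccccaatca
Trib3: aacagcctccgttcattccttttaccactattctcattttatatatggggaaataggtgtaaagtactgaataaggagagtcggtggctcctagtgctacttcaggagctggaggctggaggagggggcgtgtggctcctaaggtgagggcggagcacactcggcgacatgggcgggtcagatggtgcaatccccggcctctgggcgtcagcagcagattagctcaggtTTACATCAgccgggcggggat
Chac1 held TGACGCAA with its first base 224 bases before the start, and TTGCATCA, which is TGATGNAA read on the other strand, 167 bases before it. Trib3 held TTACATCA, also on the other strand, 21 bases before its start. TGATGNAA occurred in 2 of the 9 member promoters and in 3.98% of the 33469 promoters of the table, and TGACGCAA in 1 of the 9 and in 0.496%. The glucocorticoid response element palindrome was found in none of the 9 windows and in 0.439% of all promoters. No motif overlapped another in the printed stretches. These are matches of letters in short windows and not measured binding.

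Levels are normalized log2 signals, and no level of one probe set is set against that of another. After normalization the arrays correlated at 0.908 to 0.965 across probe sets, and median deposited signals ran from 25.8 to 132.1. By their deposited scaling and the signals of spiked-in RNA the arrays fell into 3 sets. Set A holds the first replicate of each group and vehicle replicate 3, set B holds the second replicate of each group, and set C holds replicate 3 of the combination and of dexamethasone, with no vehicle array. In set C the signal of Gapdh at the 3′ end was 6.22 times that at the 5′ end on the combination array and 4.94 times on the dexamethasone array, against 1.06 to 1.17 times on the other 7 arrays; this ratio is a usual measure of RNA quality. The 8 skeletal muscle markers all passed the filter, with summed linear levels of 217239 to 219529 in combination, 208100 to 223051 in dexamethasone and 218312 to 223339 in vehicle muscles. Most of them lie at the top of the signal range, where quantile normalization gives every array the same values by rank. These sums therefore cannot show equal muscle content. Against vehicle, Myh1 was lower in the combination without overlap (-0.66), beside 5.79% of all tested probe sets, and 5 of the 8 were above 0. RNA came from whole muscle, so fewer cells of a type and less RNA per cell cannot be told apart.

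Chac1 stood highest in dexamethasone muscle, lowest in vehicle muscle and between them in muscle of the combination. Its log2 signal was 9.58, 10.83 and 11.52 in the 3 combination muscles, 12.58, 11.83 and 12.03 in the 3 dexamethasone muscles, and 9.04, 8.67 and 8.23 in the 3 vehicle muscles. No value of one group lay within the range of another, although the lowest combination muscle was nearer to vehicle and the highest nearer to dexamethasone. The group means were 10.65 ± 0.99 for the combination, 12.14 ± 0.39 for dexamethasone and 8.65 ± 0.41 for vehicle (SD, n = 3 each). Dexamethasone exceeded vehicle by 3.49 ± 0.46 on the log2 scale (SE of the fit), by 3.94 within set A and by 3.15 within set B.

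Adding testosterone to dexamethasone left Chac1 lower by a difference of -1.50 ± 0.46 (log2, SE), which is 2.82-fold, but the difference did not pass across all probe sets (limma, adjusted p = 0.263, unadjusted p = 0.00923). Its 95% interval ran from -2.53 to -0.47. The combination array was the lower in each of the 3 array sets, with differences of -3.00 in set A, -0.99 in set B and -0.50 in set C, and the array set as a block gave -1.50 (limma, adjusted p = 0.206). Without combination replicate 1 the difference was -0.97, with an adjusted p of 0.462 in limma. The dexamethasone arrays in this difference are those for which Chac1 was chosen. The summed linear level of 7 fibroblast markers also differed between muscles, at 26009, 12482 and 10051 in combination muscles 1 to 3, 3657, 9867 and 13468 in dexamethasone muscles 1 to 3, and 22864 to 34953 in vehicle muscles. The combination array had the higher fibroblast sum in sets A and B and the lower in set C, and its part in the Chac1 values was not tested. In combination against dexamethasone 6 of the 7 markers were above 0, with a median of 1.27 and a range of -0.57 (Dcn) to 2.20 (Col3a1). Within sets A, B and C Dcn gave 1.45, -1.26 and -1.91, and Col3a1 gave 4.57, 1.73 and 0.29. All 7 of these markers passed the filter and none was at 0. Cdh15, the satellite cell marker that was measured, had linear levels of 244 to 344 in combination, 556 to 843 in dexamethasone and 202 to 387 in vehicle muscles, and its part was not tested either.

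Against vehicle, muscle of the combination still held 3.99-fold more Chac1 signal, a log2 difference of 2.00 ± 0.46 (SE) with a 95% interval of 0.97 to 3.03. It did not pass across all probe sets (limma, adjusted p = 0.793, unadjusted p = 0.00169), and 0 of the 18625 probe sets passed in this comparison, while 1139 had an unadjusted p under 0.05. The difference was 0.94 within set A and 2.16 within set B, and 1.78 with the array set as a block (limma, adjusted p = 0.637). Without combination replicate 1 it was 2.54 and without combination replicate 3 it was 1.54. The combination arrays took no part in the choice of Chac1, whereas the vehicle arrays did.

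**Figure D1:**
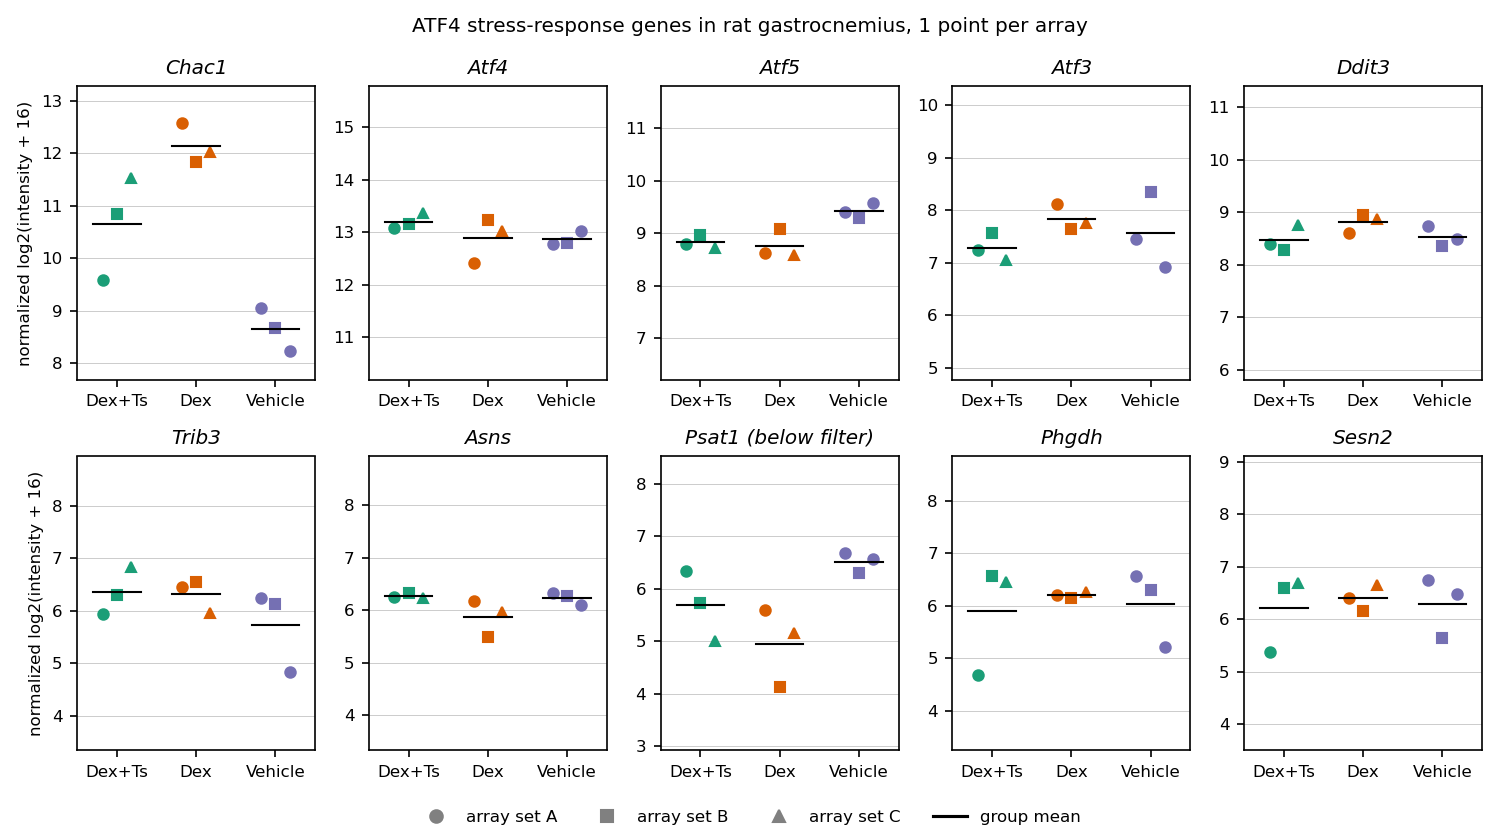
Normalized log2 signal of each of the 10 genes on each array, with 1 point per animal, horizontal bars at the group means, and combination, dexamethasone and vehicle from left to right. Chac1 shows 3 groups that do not overlap, while the points of Atf4, Atf3, Ddit3, Trib3, Asns, Phgdh and Sesn2 in dexamethasone and vehicle muscles overlap.

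None of the 4 transcription factors passed in a comparison of the combination (limma, 0 of 4 with an adjusted p under 0.05). Atf4, the activator of the response, had a log2 signal of 13.09, 13.17 and 13.37 in combination, 12.42, 13.24 and 13.03 in dexamethasone and 12.77, 12.80 and 13.04 in vehicle muscles. Every combination muscle was above every vehicle muscle, and dexamethasone muscles overlapped both. The combination differed from dexamethasone by 0.31 ± 0.24 (adjusted p = 0.697, limma) and from vehicle by 0.34 ± 0.24 (adjusted p = 0.873, limma), with a 95% interval of -0.19 to 0.87 for the comparison with vehicle. Combination minus vehicle was 0.18 within set A and 0.37 within set B. Dexamethasone differed from vehicle in Atf4 by 0.03 ± 0.24, beside 3.49 ± 0.46 in Chac1.

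Atf5, a relative of ATF4 that is also controlled at translation and acts in the mitochondrial stress response, was lower in both hormone groups. Its log2 signal was 8.80, 8.97 and 8.73 in combination, 8.63, 9.09 and 8.58 in dexamethasone and 9.41, 9.29 and 9.59 in vehicle muscles. All 6 hormone-treated muscles lay below all 3 vehicle muscles, and the hormone groups overlapped each other. The combination was below vehicle by a difference of -0.60 ± 0.20, with a 95% interval of -1.05 to -0.15, which did not pass across all probe sets (limma, adjusted p = 0.802, unadjusted p = 0.0150). Combination minus vehicle was -0.70 within set A and -0.32 within set B. Dexamethasone was below vehicle by a difference of -0.66 ± 0.20. The summed linear level of 5 endothelial markers, all above the filter, likewise lay below vehicle in all 6 hormone-treated muscles. It was 1516 to 1652 in combination, 1458 to 1852 in dexamethasone and 1928 to 2449 in vehicle muscles. The 5 markers differed among themselves. In dexamethasone against vehicle, Kdr (-0.93) and Tie1 (-0.60) were lower without overlap, whereas Pecam1 (0.02), Tek (-0.09) and Vwf (-0.63) overlapped. In combination against vehicle only Kdr (-0.85) was lower without overlap. The part of the endothelial sum in the Atf5 values was not tested. In Atf5 the combination and dexamethasone differed by 0.06 ± 0.20, with a 95% interval of -0.39 to 0.52 (adjusted p = 0.951, limma).

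Atf3, a stress-induced factor that can repress transcription, had a log2 signal of 7.25, 7.56 and 7.05 in combination, 8.13, 7.64 and 7.76 in dexamethasone and 7.46, 8.35 and 6.92 in vehicle muscles. The combination values were all below those of dexamethasone, whereas the vehicle values spread across both groups. The difference between combination and dexamethasone was -0.56 ± 0.34, with a 95% interval of -1.33 to 0.22 (adjusted p = 0.626, limma). Within sets A, B and C it was -0.88, -0.08 and -0.71. Ddit3, which encodes CHOP and activates Chac1 and Trib3 in stressed cells, had a log2 signal of 8.39, 8.29 and 8.75 in combination, 8.61, 8.95 and 8.87 in dexamethasone and 8.75, 8.36 and 8.50 in vehicle muscles. The groups overlapped in every pairing. Combination and dexamethasone differed in Ddit3 by -0.33 ± 0.21, with a 95% interval of -0.79 to 0.13 (adjusted p = 0.631, limma).

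Trib3 encodes a pseudokinase that binds ATF4 and CHOP and restrains Akt signalling. Its tested probe set read 5.95, 6.29 and 6.84 in combination, 6.46, 6.55 and 5.97 in dexamethasone and 6.25, 6.14 and 4.83 in vehicle muscles. These signals were close to the filter at a mean log2 of 5.75, and all groups overlapped. The combination differed from dexamethasone by 0.04 ± 0.40 (adjusted p = 0.988, limma) and from vehicle by 0.62 ± 0.40 (adjusted p = 0.862, limma). The probe sets of Trib3 disagreed, since one of the dimmer 2 gave -0.63 for the combination against dexamethasone and the other gave 0.10, neither of them tested. Within sets A, B and C the tested probe set gave, for the same comparison, -0.52, -0.25 and 0.88.

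The amino acid enzymes among the 10 genes, Asns, Psat1 and Phgdh, were dim on these arrays. Asns, which makes asparagine and is a standard target of ATF4, read 6.25, 6.33 and 6.23 in combination, 6.17, 5.49 and 5.97 in dexamethasone and 6.33, 6.26 and 6.11 in vehicle muscles. The 3 combination muscles lay above the 3 dexamethasone muscles and the vehicle values overlapped both. The difference between combination and dexamethasone was 0.39 ± 0.21, with a 95% interval of -0.08 to 0.87 (adjusted p = 0.548, limma). Within sets A, B and C it was 0.07, 0.85 and 0.26. Dexamethasone was below vehicle in Asns by a difference of -0.36 ± 0.21, the opposite sign to Chac1.

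Psat1, which catalyses the transamination step of serine synthesis, was below the filter and has no test. Its log2 signal was 6.34, 5.73 and 5.01 in combination, 5.59, 4.13 and 5.16 in dexamethasone and 6.68, 6.31 and 6.56 in vehicle muscles. The dexamethasone muscles were all below the vehicle muscles, with a mean difference of -1.56, which moved to -2.72 with a pseudocount of 1 and to -0.81 with one of 64. Phgdh, the first enzyme of serine synthesis, read 4.68, 6.56 and 6.45 in combination, 6.21, 6.14 and 6.25 in dexamethasone and 6.57, 6.29 and 5.21 in vehicle muscles. A single muscle in the combination and another in the vehicle group were well below the rest, and the groups overlapped. Phgdh differed between combination and dexamethasone by -0.31 ± 0.51, with a 95% interval of -1.45 to 0.84 (adjusted p = 0.899, limma).

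Sesn2 encodes a leucine-binding protein that holds back mTORC1. Its tested probe set read 5.37, 6.59 and 6.69 in combination, 6.41, 6.15 and 6.65 in dexamethasone and 6.75, 5.64 and 6.48 in vehicle muscles. All groups overlapped. The combination differed from dexamethasone by -0.18 ± 0.40 (adjusted p = 0.928, limma) and from vehicle by -0.07 ± 0.40 (adjusted p = 0.986, limma). For these genes a p that misses the threshold does not show equal levels.

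Counted over the 9 tested genes, 0 passed in either comparison of the combination, while 0.113% of all tested probe sets passed against dexamethasone (0.0698% higher and 0.043% lower) and 0% passed against vehicle. At an unadjusted p under 0.05 in limma, 1 of the 9 was lower against dexamethasone, which was Chac1, where 11% of all tested probe sets reached that p in either direction. Against vehicle 1 was higher, again Chac1, and 1 was lower, Atf5, where 6.12% of all reached it. The arrays did not overlap for 3 of the 9 between combination and dexamethasone, which were Asns above and Chac1 and Atf3 below, where 14.6% of all tested probe sets had no overlap (7.24% above and 7.35% below). They did not overlap for 3 of the 9 between combination and vehicle, with Chac1 and Atf4 above and Atf5 below, against 13.3% of all (7.53% above and 5.79% below). Chac1 enters these counts and those at the unadjusted p. It was chosen by the dexamethasone and vehicle arrays that they use, so for Chac1 they are not independent of the choice. Between dexamethasone and vehicle, 2 of the 9 had no overlap, Chac1 above and Atf5 below, beside 22.9% of all (12.5% above and 10.4% below), in the contrast by which the genes were chosen, and 1.05% of all passed the threshold there. The median log2 difference of the 9 was -0.18 for combination against dexamethasone, -0.06 for combination against vehicle and 0.18 for dexamethasone against vehicle, where that over all tested probe sets was -0.00, 0.02 and 0.01.

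**Figure D2:**
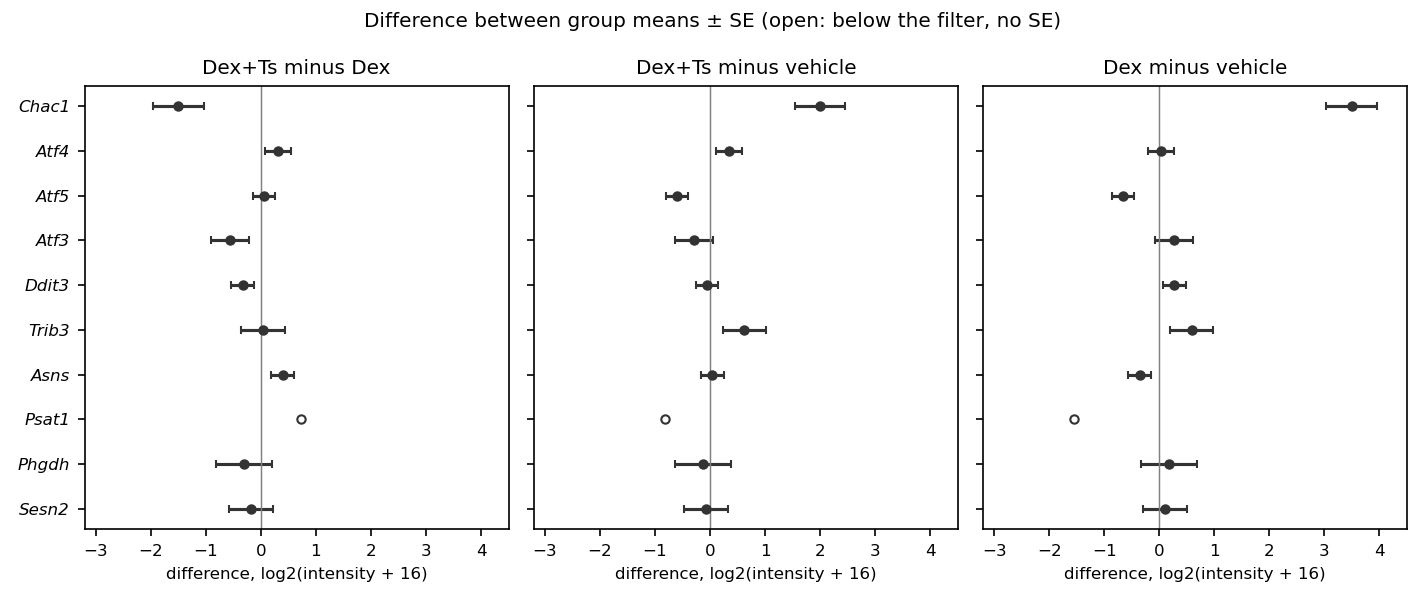
Log2 difference of each member with its SE as a bar, for combination against dexamethasone, combination against vehicle and dexamethasone against vehicle. Chac1 lies furthest from 0 in all 3, at -1.50, 2.00 and 3.49, and the open points of Psat1, which is below the filter, carry no SE.

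Beyond the 10 genes, 86 further genes of the response and of neighbouring stress pathways were listed, of which 84 were on the array by a single symbol and 72 were tested. In dexamethasone against vehicle 4 of the 72 (5.56%) rose and 0 fell, while 0.569% of all tested probe sets rose and 0.483% fell. They were Ddit4, Eif4ebp1, Cebpb and Sesn1. The lists were chosen with earlier results of these data known, so this share is a description and not a test of the pathway. Leaving out any single vehicle array, or dexamethasone replicate 1 or 2, left 0 of the 72 past the threshold. In both comparisons of the combination 0 of the 72 passed, where 0.113% of all tested probe sets passed against dexamethasone and 0% against vehicle. At an unadjusted p under 0.05 in limma, 1 of the 72 was higher and 10 were lower against dexamethasone, beside 11% of all tested probe sets in either direction. Against vehicle 3 were higher and 2 lower, beside 6.12% of all.

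Ddit4 encodes REDD1, an inhibitor of mTORC1, and is a target of both ATF4 and the glucocorticoid receptor. Its log2 signal was 7.88, 8.94 and 7.75 in combination, 10.26, 11.51 and 10.22 in dexamethasone and 7.24, 7.23 and 7.76 in vehicle muscles. Dexamethasone exceeded vehicle by 3.25 ± 0.42 (adjusted p = 0.0206, limma). All combination muscles were below the dexamethasone muscles, by a mean difference of -2.47 ± 0.42 that did not pass (adjusted p = 0.0808, limma).

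Eif4ebp1, which encodes the translation repressor 4E-BP1, read 10.37, 11.31 and 10.84 in combination, 13.46, 12.19 and 12.17 in dexamethasone and 10.05, 10.44 and 9.93 in vehicle muscles. It rose by 2.47 ± 0.38 in dexamethasone against vehicle (adjusted p = 0.0306, limma). Cebpb, a C/EBP factor that pairs with ATF4, read 9.15, 10.74 and 10.74 in combination, 11.22, 11.42 and 11.18 in dexamethasone and 9.03, 9.10 and 8.97 in vehicle muscles. It rose by 2.24 ± 0.38 (adjusted p = 0.0365, limma), and, like Chac1, its lowest combination muscle was replicate 1. Sesn1, the sestrin known as a target of p53 and FoxO factors, read 9.92, 9.78 and 9.87 in combination, 10.71, 11.05 and 10.70 in dexamethasone and 9.83, 9.48 and 9.60 in vehicle muscles. It rose by 1.18 ± 0.19 (adjusted p = 0.0324, limma). Within sets A and B, dexamethasone minus vehicle was 2.76 and 4.28 for Ddit4, 3.47 and 1.75 for Eif4ebp1, 2.22 and 2.33 for Cebpb, and 1.00 and 1.57 for Sesn1. With the array set as a block Cebpb no longer passed (limma, adjusted p = 0.0551), and with a pseudocount of 1 or with no filter Ddit4 was the only one of the 4 to pass. Without combination replicate 2, 2 pathway genes passed. The fibroblast sums given with Chac1 also differed between these groups, and their part was not tested. Sesn2 differed by 0.11 ± 0.40 between dexamethasone and vehicle, beside these values of its relative.

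The other lists are given by their medians, in log2, with 0 genes past the threshold in any of the 3 comparisons. Of all tested probe sets 1.05% passed in dexamethasone against vehicle, 0.113% in combination against dexamethasone and 0% in combination against vehicle. For the eIF2α kinases, phosphatases and substrate (8 tested) the median was 0.03 for combination against dexamethasone and 0.06 for dexamethasone against vehicle. Amino acid and one-carbon synthesis (6 tested) had 0.45 and -0.61 in the same order, and amino acid transporters (5 tested) -0.19 and -0.25. In dexamethasone against vehicle, 2 of the 6 synthesis genes were above 0, with a range of -1.18 to 0.33, and 2 of the 5 transporters, with a range of -0.93 to 0.28. The list of 13 aminoacyl-tRNA synthetases, which charge tRNAs with amino acids, and the tRNA exporter Xpot (14 tested) had -0.11 and 0.28. In dexamethasone against vehicle 13 of the 14 were above 0, where the median of all tested probe sets was 0.01. At an unadjusted p under 0.05 in limma 2 of the 14 were higher and 0 lower, a p that 15.5% of all reached in either direction. Without overlap 7 were higher and 1 lower, where 12.5% and 10.4% of all tested probe sets were.

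Genes of the unfolded protein response outside ATF4 (16 tested) had medians of -0.13 and 0.10, with differences between dexamethasone and vehicle from -0.61 to 1.28. In that comparison 6 of the 16 were higher and 1 lower without overlap, beside the same shares of all, and 5 were higher and 1 lower at an unadjusted p under 0.05 in limma, a p that 15.5% of all reached in either direction. Mitochondrial stress genes (8 tested) had -0.10 and 0.17. The lists that held the 4 genes above were the dimer partners of ATF4 with related factors such as Trib1 and Trib2 (5 tested), with medians of 0.30 and -0.42, the secreted and other targets (7 tested), with -0.70 and 0.37, and the relatives of Sesn2 and Chac1 (3 tested), with 0.06 and -0.24. 12 listed genes fell below the filter, among them Fgf21, Gdf15, Slc7a11 and Mthfd2, which are standard readouts of ATF4, and they were not tested here.

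**Figure D3:**
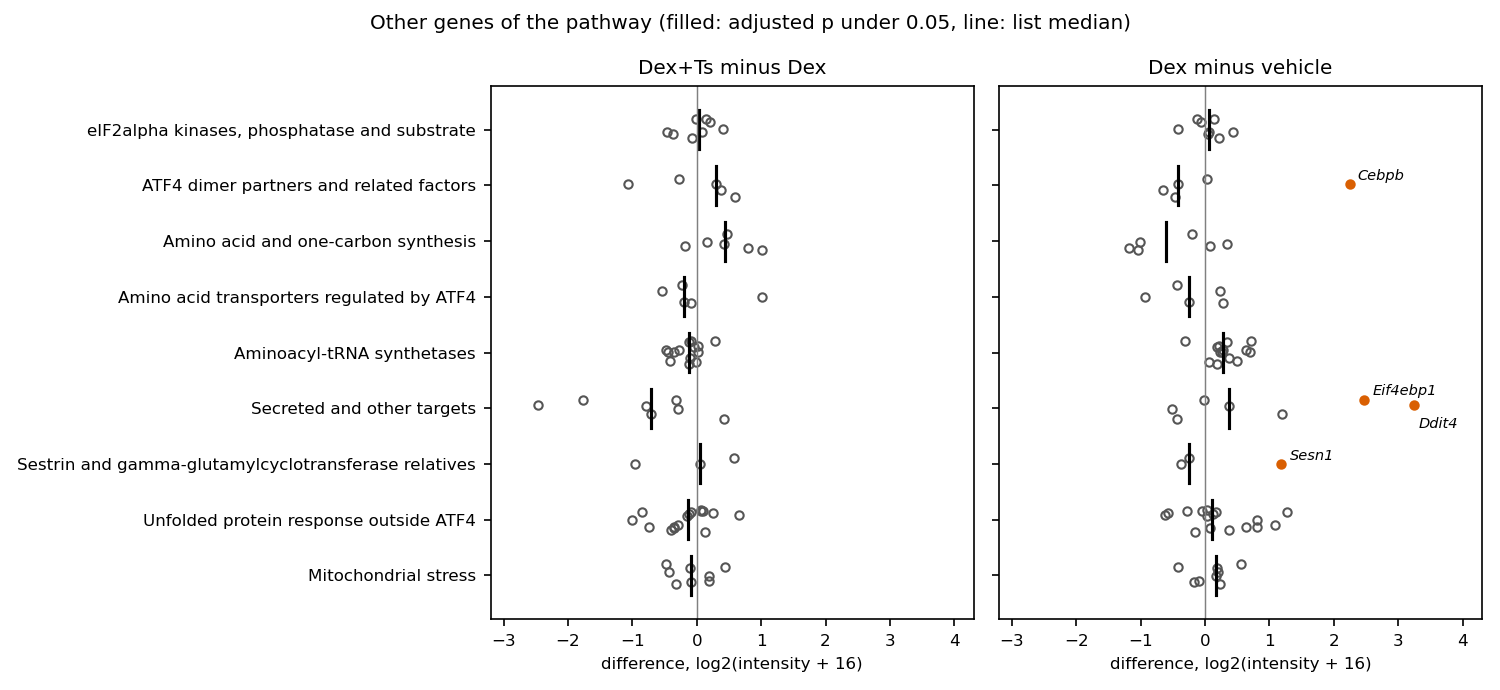
Log2 difference of each of the 72 tested pathway genes by list, with 1 point per gene, for combination against dexamethasone and dexamethasone against vehicle. The 4 genes past the threshold are named, and the other points of each list scatter around medians between -0.70 and 0.45.

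Across the 9 arrays the level of Chac1 was set against that of 10427 other genes with a tested probe set, as a description. The highest Pearson correlations were those of Acy1 (0.995), an enzyme that frees amino acids from their N-acetyl forms, Map1lc3a (0.993), which encodes an LC3 protein of autophagosomes, and Glul (0.986), which encodes glutamine synthetase. Ctsl, the lysosomal protease cathepsin L, followed at 0.982 and the phospholipase gene Plb1 at 0.980. The most negative was Fbn1, the microfibril protein fibrillin-1 made by fibroblasts, at -0.973. The points share their arrays and the group differences. With the group means removed the values were 0.97 for Acy1, 0.95 for Map1lc3a, 0.88 for Glul, 0.90 for Ctsl, 0.84 for Plb1 and -0.94 for Fbn1. These genes were picked by their correlation on the same arrays, so the choice itself favours such values and they are no independent support. From combination replicate 1 to replicate 3 Chac1 and the 5 genes rose and Fbn1 fell, which is also the order of array sets A, B and C. The part of the array sets was not tested.

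Over the same 9 arrays the correlation with Chac1 was 0.64 for Trib3, 0.52 for Ddit3, 0.39 for Phgdh, 0.32 for Sesn2, 0.25 for Atf3 and 0.03 for Atf4. It was -0.42 for Asns, -0.81 for Psat1 and -0.83 for Atf5. With the group means removed it was 0.86 for Phgdh, 0.70 for Sesn2, 0.67 for Trib3, 0.39 for Asns, 0.31 for Ddit3 and 0.18 for Atf3. It was -0.16 for Atf4 and -0.32 for both Atf5 and Psat1, so Asns had opposite signs with and without the group differences. The values of Phgdh, Sesn2 and Trib3 include single dim arrays under the filter value of 5.75. Phgdh read 4.68 and Sesn2 5.37 in combination replicate 1, and Phgdh read 5.21 and Trib3 4.83 in vehicle replicate 3. Chac1 was also lowest of its group on both arrays, at 9.58 and 8.23. The part of single arrays in these correlations was not tested. Ctsl, as an example of the nearest genes, read 11.72, 12.67 and 12.77 in combination, 13.75, 13.39 and 13.40 in dexamethasone and 11.36, 11.45 and 11.35 in vehicle muscles. Combination replicate 1 was the lowest of its group in Ctsl, as it was in Chac1.

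**Figure D4:**
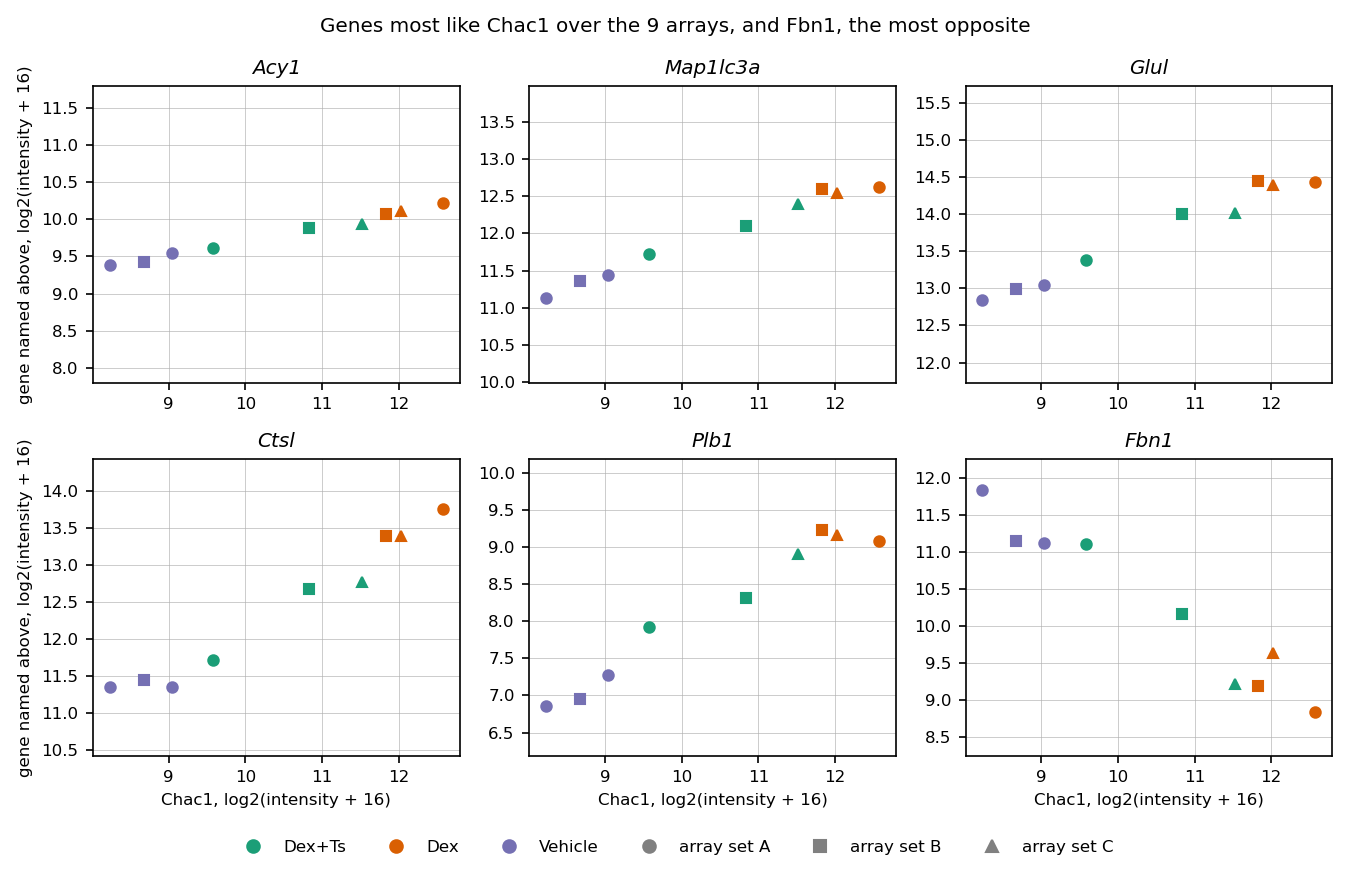
Normalized log2 signal of 6 genes, each plotted against the log2 signal of Chac1 on the same 9 arrays, coloured by group. Acy1, Map1lc3a, Glul, Ctsl and Plb1 rise with Chac1 (Pearson r of 0.995 to 0.980) and Fbn1 falls (-0.973), with the combination arrays lying between the other groups along the Chac1 axis.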

How the data were processed

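Gastrocnemius RNA of 9 rats was measured on Affymetrix rat 230-2 arrays, per the labels. The deposited values are linear intensities, 1 signal per probe set, and no source used here names the signal algorithm. Trimmed means computed here from the deposited values, with 2% left out at each end, were near 500 on 5 arrays and 113 to 207 on 4.

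From 31099 probe sets, 57 controls were left out. The log2 of intensity plus 16 was quantile normalized in limma 3.58.1 (R 4.3.3). Probe sets below the 40th percentile of the mean were dropped, leaving 18625. Fold changes on this scale understate the change of dim probe sets. Each probe set was fitted (lmFit, eBayes) with 1 mean per group over all 9 arrays. Benjamini-Hochberg adjustment ran within each comparison at a threshold of 0.05. The p-values measure spread between arrays of 1 animal each, which holds differences between array sets as well as between animals. The script was tested on simulated data.

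Of 31042 probe sets, 20826 had 1 symbol, 436 several and 9780 none; 20758 symbols were updated by gene ID to GRCr8. A gene is represented by its brightest probe set. The members, lists and motifs were chosen with earlier results of these data known. The text names all members, up to 6 listed genes past the threshold per comparison, and the 5 genes most like Chac1 with the most negative one. Lists of markers for fibroblasts, macrophages, endothelium, adipocytes, nerve, satellite cells, liver and muscle were summed on the linear scale.

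Comparisons share arrays: both hormone groups are set against the same vehicle arrays, and the dexamethasone arrays enter 2 comparisons. Alternatives covered the pseudocount, filter, normalization, probe set, array sets, replicate block and each array left out.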

Additional observations from a re-analysis of the deposited data

How the results depend on the processing

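Under 19 alternatives 0 of the member probe sets passed in either comparison of the combination. Chac1 kept its direction in all 3 comparisons, between -1.98 and -0.97 for combination against dexamethasone and between 1.52 and 2.54 for combination against vehicle. Within array sets it was -3.00 in set A and -0.50 in set C against dexamethasone, and 0.94 in set A against vehicle. The labels state no pairing, so the replicate numbers were not taken as pairs. Same-numbered arrays deviated together at correlations from -0.20 to 0.59, the highest between replicate 3 of the combination and of dexamethasone, which form set C. With a replicate block the Chac1 difference was -1.50 (limma, adjusted p = 0.314) against dexamethasone and 2.00 (limma, adjusted p = 0.679) against vehicle. The block gave 13 calls for dexamethasone against vehicle and 0 for combination against dexamethasone over all probe sets, against 196 and 21 without it, and across the alternatives these counts ran from 1 to 510 and from 0 to 149. Calls among the 72 pathway genes ran from 0 to 7 and from 0 to 2. With the replicate block Ddit4 still passed in dexamethasone against vehicle (adjusted p = 0.0451, limma), while Cebpb (0.0578), Eif4ebp1 (0.0595) and Sesn1 (0.0599) did not; with only the 2 groups compared in the fit Sesn1 did not (0.0597).

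Of 378 member values under alternatives for the comparisons of the combination, 23 had the opposite sign. For dexamethasone against vehicle 15 of 192 did, all of them in Atf4, Atf3, Phgdh or Sesn2. Trib3 gave -0.37 against dexamethasone without set C, -0.63 with its dimmest probe set, and -0.033 against vehicle with that one. Asns gave -0.17 against vehicle with trimmed-mean scaling. Sesn2 gave 0.34 against dexamethasone and 0.14 against vehicle with its dimmer probe set. Leaving out 1 array at a time, the combination against dexamethasone ran from -0.028 to 0.23 for Atf5, -0.20 to 0.25 for Trib3, -0.62 to 0.31 for Phgdh and -0.42 to 0.25 for Sesn2. Against vehicle it ran from -0.63 to 0.10 for Atf3, -0.19 to 0.050 for Ddit3, -0.026 to 0.086 for Asns, -0.55 to 0.49 for Phgdh and -0.39 to 0.36 for Sesn2. The cause of these sign changes was not tested. Dim signals limit Trib3, Asns, Psat1, Phgdh and Sesn2, whose levels lie near the filter, and 3 animals per group limit all tests.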

Other observations

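Markers of other cells were summed on the linear scale on each array. For macrophages the sums were 434 to 1002 in combination, 441 to 1301 in dexamethasone and 876 to 1100 in vehicle muscles. For endothelium they were 1516 to 1652 in combination, 1458 to 1852 in dexamethasone and 1928 to 2449 in vehicle muscles. Adipocyte markers summed to 1279 to 1909 in combination, 1723 to 2163 in dexamethasone and 1874 to 2720 in vehicle muscles, and nerve markers to 246 to 571, 330 to 935 and 290 to 1623 in the same groups. The adipocyte sum rests mainly on Fabp4, and its markers disagreed. In dexamethasone against vehicle Fabp4 gave -0.27, Adipoq -0.01 and Plin1 0.53, while Cidec gave 1.90 and Lep 0.30 below the filter. Of the 6 tested macrophage markers only Cd163 (1.04) was above 0 there, with a median of -0.64 for the list. Cdh15, the only satellite cell marker measured, stood at 244 to 344 in combination, 556 to 843 in dexamethasone and 202 to 387 in vehicle muscles. The 4 liver markers summed to 108 to 203, 119 to 203 and 119 to 186 in the same order of groups. Some sums include dim signals, since 1 of the 4 liver, 3 of the 5 adipocyte, 2 of the 3 nerve and 6 of the 7 macrophage markers were above the filter. Of the 7 fibroblast markers, 1 passed as lower in dexamethasone against vehicle (Mfap5, -1.75 ± 0.29, adjusted p = 0.0338 in limma). Of all tested probe sets 0.483% passed as lower there. In that comparison 0 of the 7 were above 0, with a median of -1.75 and a range of -3.00 to -0.42. Without overlap 5 of the 7 were lower, where 10.4% of all tested probe sets were. In the other lists 0 markers passed in any comparison.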
